A study of Mus musculus with 11 samples.

Results

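The expression of 8 mouse genes for glycan building and sialic acid enzymes was followed across small intestine libraries. The genes were Mgat4c, Npl, Ext1, B4galnt2, Fut2, St6gal1, St3gal4 and B3gnt7. They were taken by symbol from the table of all samples, and all 8 were found among its 24250 genes. They were chosen by the differences of their FPKM values between these same groups, so their values, and any count of them past a threshold, are given as a description and not as tests of the genes. Of the 8, 6 were among the 10296 genes with a mean of at least 1 FPKM, the level used for tests.

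The study measured small intestine RNA in 11 libraries from 3 groups of mice. The FSP group (5 Substances Powder with Poria, a herbal formula whose number the labels write as a word) had 4 libraries, the HFD group had 4 and the ND group had 3. HFD and ND are the labels' own abbreviations, which in mouse work usually stand for a high-fat and a normal diet. The labels give neither the diet of the FSP group nor the strain, sex, age, dose, duration or stretch of small intestine for any group. Nothing in the labels says that the libraries came from separate animals, so spreads and p-values cover these libraries only.

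The deposited values are FPKM, fragment numbers scaled to transcript length and library depth, so that levels of different genes can be compared per length. Sequencing depth, recovered from single-exon genes, ran between 3.18e+07 and 3.84e+07 fragments per library, so a 1 kb transcript at 1 FPKM rested on about 31.8 fragments in the shallowest library, HFD 1. That library also had the largest mitochondrial share, 40.4% of summed FPKM, against 12.9% to 26.3% in the other 10. All 12 absorptive enterocyte markers, Vil1, Epcam and Cdx2 among them, were detected in every library, but at differing levels. Their mean log2 score was 7.68, 8.18, 8.44 and 8.56 in HFD 1 to 4, 8.36 to 8.64 in FSP and 8.30 to 8.58 in ND. By limma, 4 of the 12 were lower and 1 was higher in HFD against ND, where 15.1% of all tested genes were lower and 5.36% higher. In FSP against HFD, 2 of the 12 were higher and 0 lower, where 2.83% of all tested genes were higher. Like the enterocyte score, Ext1, B4galnt2, St3gal4 and B3gnt7 rose from HFD 1 to HFD 4, while Mgat4c and Npl did not. Ext1 rose with the score in FSP 1 to 4 but fell in ND 1 to 3. Markers of intestinal position differed between the groups. The position score, the mean log2 level of 11 distal small intestine markers minus that of 11 proximal ones, lay between -2.05 and 0.48 in FSP, between -3.50 and -2.78 in HFD and between -0.34 and 2.86 in ND libraries. The distal markers summed to 711 to 4384 FPKM in FSP, 416 to 674 in HFD and 1638 to 12214 in ND. The proximal markers summed to 14710 to 34010 FPKM in FSP, 36965 to 49508 in HFD and 1787 to 10723 in ND. All 11 of each list were measured, and Fgf15 and Hamp were at 0 in some libraries. Not every marker moved with its list. In HFD against ND, 8 of the 9 tested proximal markers were higher, but Slc40a1 was lower (log2 -1.96, limma adjusted p = 0.00337). Of the 11 distal markers, 7 were lower by limma and 0 higher, while Ces1f gave 0.28, and -1.14 in FSP against HFD. For FSP against HFD, limma called 4 of the 11 distal markers higher and 0 lower. Of the 9 tested proximal markers, 0 were higher and 1 was lower there, where 0.913% of all tested genes were lower. Goblet cell markers (10 of 10 measured) summed to 1574 to 12732 FPKM in FSP, 4208 to 4733 in HFD and 1280 to 2308 in ND. The part of these differences in the levels below was not tested. The fits with the position score cannot separate position from group, since HFD scores overlapped with neither FSP nor ND. In whole tissue, fewer cells of a type and less RNA per cell cannot be told apart.

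Glycans on gut epithelial cells and mucins are built in the endoplasmic reticulum and Golgi by enzymes that add sugars in a set order. N-glycans are trimmed and then branched with GlcNAc, chains are lengthened with galactose, GlcNAc or GalNAc, and the ends are capped with fucose or sialic acid. These caps form the outer surface that intestinal bacteria and lectins meet. Sialic acid that is released from glycans by sialidases can be taken apart by a lyase, and heparan sulfate, a separate class of chain, is polymerised on proteoglycan cores.

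Promoter windows from RefSeq (GRCm38.p6) matched 6 of the 8 genes, Ext1 and Fut2 being the others. The sequences of 4 windows of 300 bases around a transcription start are shown for contrast among the 6 genes above the level filter: Mgat4c and Npl had the largest log2 changes in HFD against ND, St3gal4 the smallest, and B3gnt7 the smallest in FSP against HFD. The Mgat4c window is the last of its 4 annotated starts, at chr10:102374187-102374486 on the plus strand. The Npl window lies at chr1:153549665-153549964 on the minus strand, the B3gnt7 window at chr1:86302971-86303270 on the plus strand and the St3gal4 window at chr9:35116815-35117114 on the minus strand. Capitals mark exact matches, on either strand, to the motifs searched.
Mgat4c: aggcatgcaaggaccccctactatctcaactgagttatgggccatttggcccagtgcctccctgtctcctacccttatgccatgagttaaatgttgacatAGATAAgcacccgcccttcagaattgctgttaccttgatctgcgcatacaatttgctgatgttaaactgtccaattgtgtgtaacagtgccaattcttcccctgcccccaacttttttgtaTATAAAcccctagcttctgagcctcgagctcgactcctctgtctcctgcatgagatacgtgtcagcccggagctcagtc
Npl: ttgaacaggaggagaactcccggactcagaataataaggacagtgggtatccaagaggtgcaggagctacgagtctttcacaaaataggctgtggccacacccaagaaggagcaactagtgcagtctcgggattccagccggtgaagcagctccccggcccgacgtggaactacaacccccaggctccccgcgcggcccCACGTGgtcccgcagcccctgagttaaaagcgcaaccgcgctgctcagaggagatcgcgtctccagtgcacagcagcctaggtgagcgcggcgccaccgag
B3gnt7: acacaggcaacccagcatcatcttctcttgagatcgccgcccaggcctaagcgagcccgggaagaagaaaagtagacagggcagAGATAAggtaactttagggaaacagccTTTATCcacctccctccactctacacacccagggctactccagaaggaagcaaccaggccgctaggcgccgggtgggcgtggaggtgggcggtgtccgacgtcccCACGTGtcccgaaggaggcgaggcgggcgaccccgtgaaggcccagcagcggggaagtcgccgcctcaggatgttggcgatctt
St3gal4: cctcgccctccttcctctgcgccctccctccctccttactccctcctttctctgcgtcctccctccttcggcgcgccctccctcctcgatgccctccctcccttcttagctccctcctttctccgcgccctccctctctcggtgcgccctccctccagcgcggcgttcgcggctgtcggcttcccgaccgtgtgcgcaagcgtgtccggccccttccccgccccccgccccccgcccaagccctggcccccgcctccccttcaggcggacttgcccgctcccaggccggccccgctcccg

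The St3gal4 window had 74% GC and 31 CpG dinucleotides, the composition of a CpG island promoter, whereas the Mgat4c window had 49% GC and 6 CpG. The Npl window had 61% GC and 21 CpG, and the B3gnt7 window 62% GC and 21 CpG. Over all 32851 windows in the table the medians were 52.67% GC and 7 CpG. The Mgat4c window carried a TATA box (TATAAA) at positions -29 to -24 from the start, letters that also read as a CDX2-type core (TTTATA) on the other strand and that occur in 13.62% of all windows. It also held a GATA-type AGATAA at -150 to -145, found in 11.18% of windows. Windows 1 to 3 of Mgat4c, not shown, differed from it, with 27.67%, 40.67% and 48.33% GC, 1, 7 and 10 CpG and no TATAAA. They were not free of the other motifs. AGATAA was also in windows 1 and 3, and CDX2-type letters were in window 1 (TTTATC and TTTATT) and window 2 (TTTATT). Which of the 4 starts is used in these libraries was not tested. The Npl and B3gnt7 windows each held an E-box (CACGTG), at -51 to -46 and at -34 to -29, against 7.15% of all windows. B3gnt7 also held AGATAA at -166 to -161 and the CDX2-type TTTATC at -139 to -134, the second of which is in 10.07% of windows. None of the motifs searched, which also included CAAAGTCCA (0.4749% of windows), TTCNNNGAA (8.298%) and an NF-kB type motif (5.555%), was found in the St3gal4 window. A match describes letters in the window and shows no binding.

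Among branching enzymes, Mgat4c had the widest fold range of the 8 genes between group means in FSP against HFD. Mgat4c is placed by sequence in the family of GlcNAc-transferases that start an additional branch on N-glycans, beside Mgat4a and Mgat4b. The gene lies at chr10:101681487-102391469 on the plus strand (GRCm38, GENCODE M21). It was at 19.7, 31.1, 16.4 and 36.9 FPKM in FSP 1 to 4, at 0.197, 6.69, 2.60 and 0.284 FPKM in HFD 1 to 4, and at 109.5, 72.7 and 42.2 FPKM in ND 1 to 3. No HFD library reached the lowest FSP library, and no FSP library reached the lowest ND library. The means were 26.0 ± 9.58 in FSP, 2.44 ± 3.04 in HFD and 74.8 ± 33.7 FPKM in ND (SD, n = 4, 4 and 3). FSP stood 10.7-fold over HFD, and HFD stood at 0.0326 times the ND level. Without HFD 2 the HFD mean was 1.03 FPKM, and these folds were 25.3 and 0.0137. On the log2(FPKM + 1) scale the changes were 3.33 (SE 0.55) for FSP against HFD, -4.79 (SE 0.59) for HFD against ND and -1.46 (SE 0.59) for FSP against ND.

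The rest of the Mgat4 family moved less in fold. Mgat4a averaged 46.3 ± 11.03 FPKM in FSP, 33.1 ± 8.45 in HFD and 46.2 ± 0.96 in ND, and its change did not pass the limma threshold in FSP against HFD (log2 0.48, adjusted p = 0.224) or in HFD against ND (log2 -0.51, adjusted p = 0.114). Mgat4b gave log2 -0.59 in HFD against ND with a limma adjusted p of 0.0504. Mgat4c made up 25.2% ± 7.72 of the summed Mgat4a, Mgat4b and Mgat4c level in FSP, 3.94% ± 4.95 in HFD and 46.4% ± 11.1 in ND libraries. The family as a whole summed to 102.6 FPKM in FSP, 58.6 in HFD and 155.5 in ND.

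Within groups, Mgat4c levels were ordered much like the position score. In HFD the order of the 4 libraries by Mgat4c (HFD 2, 3, 4, 1) was their order by position score, and in ND it was again the same (ND 1, 2, 3). In FSP, library 4 was highest and library 3 lowest by both measures, while libraries 1 and 2 changed places.

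**Figure D1:**
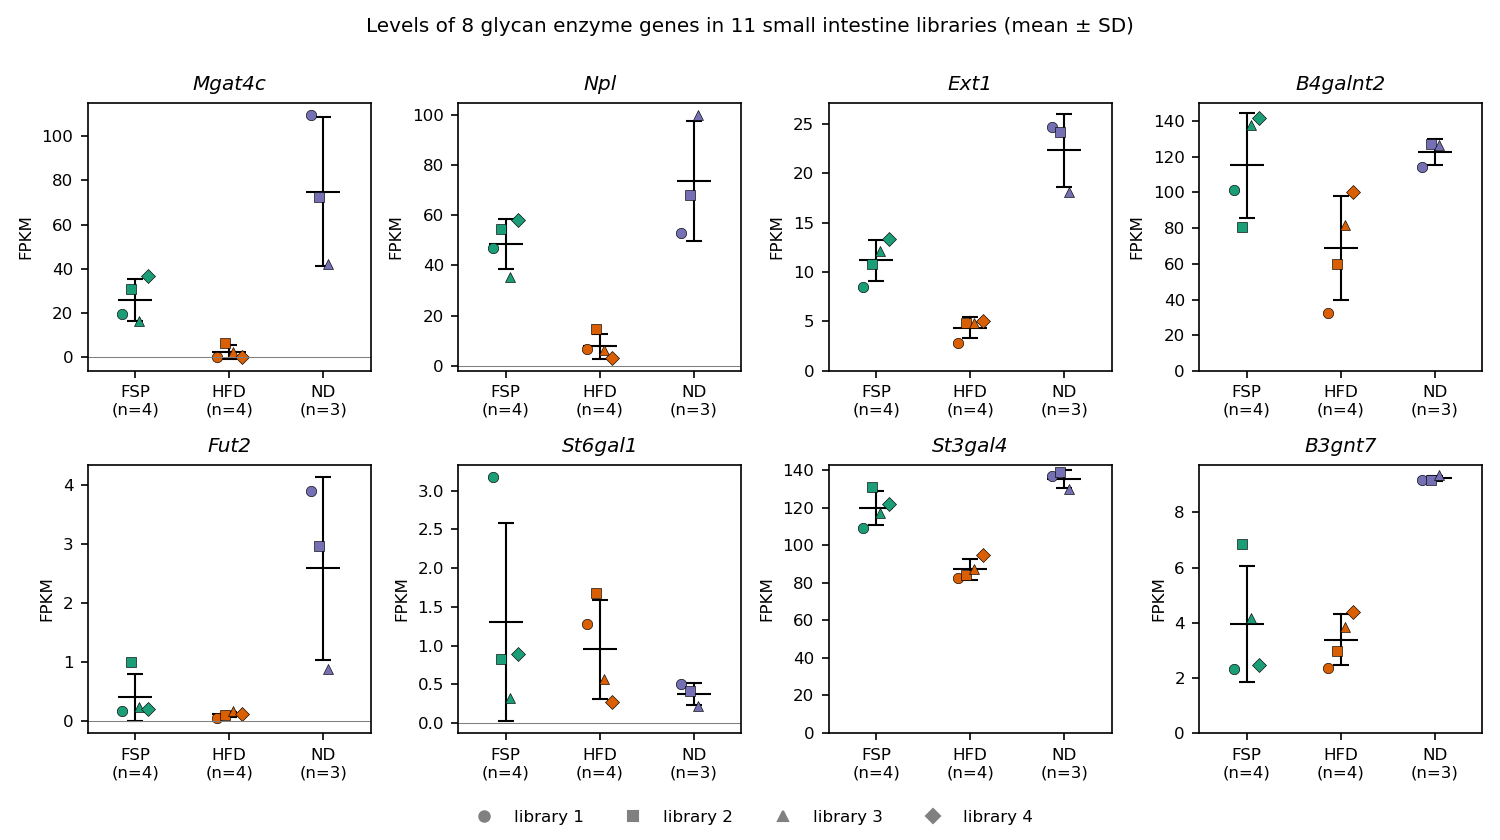
FPKM of the 8 genes (vertical axes, linear) in FSP, HFD and ND libraries. Points are libraries with a marker for each library number, long bars are means and whiskers are SD (n = 4, 4 and 3). Npl and Mgat4c are low in all HFD libraries, with means of 7.75 and 2.44 FPKM, while St6gal1 overlaps across all 3 groups.

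For the breakdown of sialic acid, Npl, the lyase that splits N-acetylneuraminic acid into N-acetylmannosamine and pyruvate, was low in all HFD libraries. Npl lies at chr1:153503015-153550045 on the minus strand. It was at 46.8, 54.4, 35.5 and 57.9 FPKM in FSP 1 to 4, at 6.56, 14.8, 6.40 and 3.23 FPKM in HFD 1 to 4, and at 53.1, 67.9 and 100.02 FPKM in ND 1 to 3. FSP and ND overlapped, and HFD overlapped with neither. The means were 48.7 ± 9.90 in FSP, 7.75 ± 4.96 in HFD and 73.7 ± 24.0 FPKM in ND (SD, n = 4, 4 and 3). FSP stood 6.28-fold over HFD, HFD stood at 0.105 times ND, and FSP stood at 0.660 times ND. The log2 changes were 2.64 (SE 0.34), -3.21 (SE 0.37) and -0.56 (SE 0.37) in that order. In FSP, Npl was highest in library 4 and lowest in library 3, as was the position score. In HFD both were highest in library 2, but Npl was lowest in HFD 4 and the score was lowest in HFD 1 (-3.50). In ND libraries Npl ran against the position score, being highest in ND 3, the least distal of the ND libraries.

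Other genes of sialic acid supply and release were not uniformly changed. Neu1, the lysosomal sialidase, averaged 22.0 ± 6.02 FPKM in FSP, 6.70 ± 0.589 in HFD and 39.4 ± 17.1 in ND. It rose in FSP against HFD (log2 1.53, SE 0.28, limma adjusted p = 0.018) and fell in HFD against ND (log2 -2.29, SE 0.30, limma adjusted p = 0.000924). Without HFD 3 or without FSP 4 the FSP against HFD call of Neu1 was lost. Nans, which joins N-acetylmannosamine phosphate to phosphoenolpyruvate, fell in HFD against ND by a small amount (log2 -0.35, limma adjusted p = 0.0341). Gne, the enzyme that starts sialic acid synthesis, averaged 5.81 ± 1.03, 5.03 ± 1.11 and 5.01 ± 0.129 FPKM in FSP, HFD and ND and passed no comparison. Cmas, which activates sialic acid with CMP, gave log2 -0.56 in HFD against ND (limma adjusted p = 0.11), and the Golgi carrier Slc35a1 gave -0.44 (limma adjusted p = 0.0811). Renbp and Nagk, in the recycling of GlcNAc and its epimers, passed none, and Neu3 averaged 0.150, 0.290 and 0.247 FPKM in FSP, HFD and ND, under the level filter.

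Of the sialyltransferases, St3gal4, which caps galactose on glycoproteins, was abundant and moved little in fold. St3gal4 lies at chr9:35046576-35119268 on the minus strand. It was at 108.96, 130.99, 117.4 and 121.9 FPKM in FSP 1 to 4, at 82.6, 83.9, 87.5 and 94.99 FPKM in HFD 1 to 4, and at 136.7, 138.8 and 129.7 FPKM in ND 1 to 3. Every FSP library lay above every HFD library, and every HFD library below every ND library, while FSP and ND overlapped. The means were 119.8 ± 9.18 in FSP, 87.3 ± 5.57 in HFD and 135.1 ± 4.77 FPKM in ND (SD, n = 4, 4 and 3), with log2 changes of 0.45 (SE 0.10) for FSP against HFD, -0.63 (SE 0.10) for HFD against ND and -0.17 (SE 0.10) for FSP against ND. It supplied most of the summed St3gal1 to St3gal6 level, 90.7% ± 2.32 in FSP, 85.2% ± 3.03 in HFD and 93.9% ± 0.64 in ND. An antisense model, 4930581F22Rik, overlaps 412 bases of the gene, averaged 1.27 FPKM, and cannot be separated without knowing the strand setting. Stretches of B4galnt2 (263 bases), St6gal1 (200 bases) and B3gnt7 (520 bases) also overlap antisense models, with the same limit.

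St3gal1, a related enzyme that caps O-glycan cores, went the other way. It averaged 3.27 ± 1.84 FPKM in FSP, 5.50 ± 2.35 in HFD and 0.831 ± 0.348 in ND, higher in HFD against ND (log2 1.77, limma adjusted p = 0.00726). Its change in FSP against HFD did not pass the threshold (log2 -0.63, limma adjusted p = 0.343). St3gal6 averaged 7.27, 8.47 and 6.63 FPKM in FSP, HFD and ND and passed no comparison. St6galnac6 fell in HFD against ND (log2 -0.69, limma adjusted p = 0.0463), a call that was lost in 7 of the 11 fits that each leave out 1 library.

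St6gal1, the enzyme that puts sialic acid on the galactose of N-glycans in B cells and liver, was low and fell under the level filter. The gene lies at chr16:23224740-23360350 on the plus strand. It was at 3.18, 0.824, 0.319 and 0.894 FPKM in FSP 1 to 4, at 1.28, 1.68, 0.573 and 0.275 FPKM in HFD 1 to 4, and at 0.499, 0.417 and 0.218 FPKM in ND 1 to 3. All 3 groups overlapped. The means were 1.30 ± 1.27 in FSP, 0.951 ± 0.642 in HFD and 0.378 ± 0.144 FPKM in ND (SD, n = 4, 4 and 3). Levels ran partly with B and plasma cell transcripts. The mean log2 score of 12 such markers was 4.12, 3.28, 0.82 and 1.48 in FSP 1 to 4, 3.46, 3.42, 2.43 and 1.00 in HFD 1 to 4, and 0.89, 0.77 and 0.77 in ND 1 to 3. FSP 1 had the highest St6gal1 and the highest score. FSP 2, with a score of 3.28 and the largest sum, had less St6gal1 than FSP 4, whose score was 1.48. The summed markers ran from 87.5 to 812 FPKM in FSP, 126 to 303 in HFD and 39.0 to 65.0 in ND. All 12 markers were measured, and Blk and Cr2 were at 0 in some libraries. The part of B cells in the St6gal1 levels was not tested.

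Fut2, the fucosyltransferase that makes the secretor type of terminal fucose on intestinal glycans, was near 0 outside ND. Fut2 lies at chr7:45648591-45666394 on the minus strand. It was at 0.155, 0.989, 0.227 and 0.202 FPKM in FSP 1 to 4, at 0.0485, 0.0915, 0.166 and 0.108 FPKM in HFD 1 to 4, and at 3.90, 2.97 and 0.872 FPKM in ND 1 to 3. HFD did not overlap with ND, while FSP 2 exceeded ND 3. The means were 0.393 ± 0.398 in FSP, 0.103 ± 0.0484 in HFD and 2.58 ± 1.55 FPKM in ND (SD, n = 4, 4 and 3), with HFD at 0.0401 times ND. These levels rest on 5.58 to 36.6 fragments per kb in FSP, 1.54 to 5.88 in HFD and 32.4 to 137.7 in ND. The exons annotated for the gene cover 5431 bases, so whole-gene fragment numbers were larger than these. Apart from FSP 2, no FSP or HFD library exceeded 8.68 fragments per kb, so differences among those libraries rest on few fragments per kb. Fut1, the close relative, stayed at or under a mean of 0.0516 FPKM in every group. Fut4 and Fut8 passed no comparison, and Gmds, which makes the GDP-fucose precursor, fell in HFD against ND (log2 -1.91, SE 0.46, limma adjusted p = 0.015). Its means were 77.9 ± 18.7 in FSP, 39.95 ± 20.1 in HFD and 130.0 ± 15.2 FPKM in ND, and the call was lost without ND 1 and without ND 2.

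B4galnt2 adds GalNAc to sialylated galactose and makes the Sd(a) antigen on mouse intestinal epithelium. The gene lies at chr11:95865943-95914891 on the minus strand. It was at 101.3, 80.6, 137.6 and 141.6 FPKM in FSP 1 to 4, at 32.7, 60.1, 81.9 and 100.1 FPKM in HFD 1 to 4, and at 114.0, 127.2 and 126.3 FPKM in ND 1 to 3. FSP overlapped both other groups, and HFD lay below ND throughout. The means were 115 ± 29.3 in FSP, 68.7 ± 29.0 in HFD and 122.5 ± 7.38 FPKM in ND (SD, n = 4, 4 and 3). The log2 changes were 0.81 (SE 0.30) for FSP against HFD, -0.94 (SE 0.32) for HFD against ND and -0.12 (SE 0.32) for FSP against ND. Its share of the summed B4galnt1 to B4galnt4 level was 59.2% ± 5.98 in FSP, 49.9% ± 6.54 in HFD and 66.9% ± 0.20 in ND. B4galnt1, the ganglioside enzyme, averaged 69.5 ± 6.58, 59.2 ± 12.9 and 49.6 ± 3.63 FPKM in FSP, HFD and ND and passed no comparison. B4galnt3 fell in HFD against ND (log2 -0.48, limma adjusted p = 0.0395), a call lost in 7 of 11 fits that leave out 1 library, and B4galnt4 fell as well (log2 -1.12, limma adjusted p = 0.000695).

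For chain extension, B3gnt7, a GlcNAc-transferase that lengthens sulfated poly-lactosamine chains, had the smallest fold of the 8 between FSP and HFD, 1.16. B3gnt7 lies at chr1:86302832-86307305 on the plus strand. It was at 2.30, 6.84, 4.16 and 2.47 FPKM in FSP 1 to 4, at 2.36, 2.96, 3.85 and 4.39 FPKM in HFD 1 to 4, and at 9.18, 9.18 and 9.34 FPKM in ND 1 to 3. Both FSP and HFD lay below every ND library. The means were 3.95 ± 2.11 in FSP, 3.39 ± 0.907 in HFD and 9.23 ± 0.0964 FPKM in ND (SD, n = 4, 4 and 3), with log2 changes of 0.10 (SE 0.25), -1.24 (SE 0.27) and -1.14 (SE 0.27) in the order FSP against HFD, HFD against ND and FSP against ND. The FSP against HFD value had either sign across the alternatives. Its share of the B3gnt2 to B3gnt9 sum was 4.51% ± 1.94 in FSP, 4.17% ± 0.66 in HFD and 10.1% ± 0.45 in ND. B3gnt2 and B3gnt3, which share its reaction, passed no comparison.

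Ext1, which with Ext2 forms the polymerase of heparan sulfate, was graded across the groups without overlap between any pair. Ext1 lies at chr15:53064038-53346159 on the minus strand. It was at 8.44, 10.8, 12.1 and 13.3 FPKM in FSP 1 to 4, at 2.83, 4.83, 4.85 and 5.05 FPKM in HFD 1 to 4, and at 24.7, 24.2 and 18.1 FPKM in ND 1 to 3. The means were 11.2 ± 2.09 in FSP, 4.39 ± 1.05 in HFD and 22.3 ± 3.65 FPKM in ND (SD, n = 4, 4 and 3). FSP stood 2.55-fold over HFD and at 0.501 times ND. The log2 changes were 1.18 (SE 0.18) for FSP against HFD, -2.12 (SE 0.20) for HFD against ND and -0.94 (SE 0.20) for FSP against ND. Ext2 averaged 4.86 ± 1.41, 3.51 ± 1.08 and 6.14 ± 0.76 FPKM in FSP, HFD and ND, with log2 -0.69 in HFD against ND and a limma adjusted p of 0.0551. Ext1 made up 69.7% ± 7.06 of the Ext1 and Ext2 sum in FSP, 56.0% ± 2.496 in HFD and 78.3% ± 1.55 in ND. Extl2 and Extl3 passed no comparison.

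**Figure D2:**
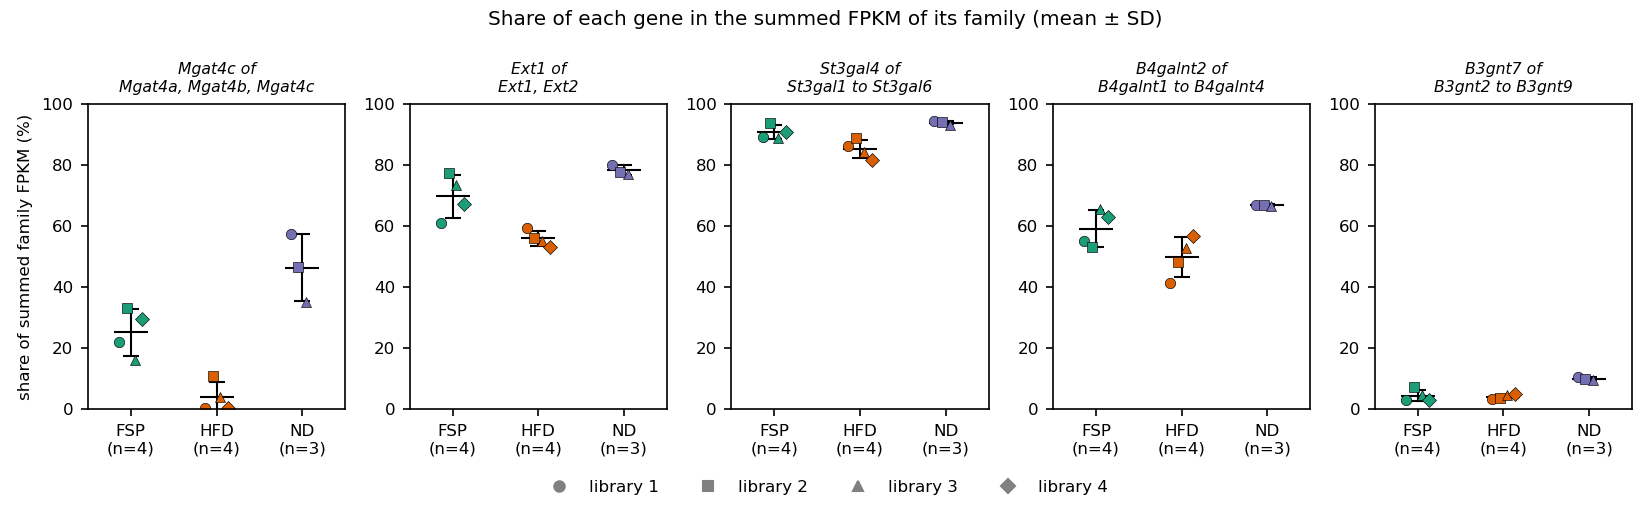
Percentage of the summed family FPKM held by each gene (vertical axes, 0 to 100%) in FSP, HFD and ND libraries, with points for libraries, means as long bars and SD as whiskers. The Mgat4c share averages 25.2% in FSP, 3.94% in HFD and 46.4% in ND, while the St3gal4 share averages 90.7%, 85.2% and 93.9%.

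Counted together, 4 of the 6 genes above the level filter passed the limma threshold as higher in FSP than in HFD (Mgat4c, Npl, Ext1 and St3gal4), where 2.83% of all 10296 tested genes were higher. In HFD against ND, 5 of 6 were lower, B4galnt2 being the exception, where 15.1% of all tested genes were lower. In FSP against ND, Ext1 alone was lower, where 0.33% of tested genes were lower. The same 4 genes had every FSP library above every HFD library, against 8.52% of tested genes. All 6 had every HFD library below every ND library, against 33.6%, as did Fut2 below the filter. Mgat4c, Ext1 and B3gnt7 had every FSP library below every ND library, against 10.9%. The genes were chosen with these contrasts known, so these counts support nothing beyond the description, and the comparisons with HFD share the same 4 HFD libraries. Over all tested genes the median log2 change was 0.12 in FSP against HFD, -0.21 in HFD against ND and -0.07 in FSP against ND. Of 21 alternatives, 20 kept Npl and Ext1 past the threshold in FSP against HFD and in HFD against ND, the fit with the position score being the exception. Mgat4c in FSP against HFD was also lost as a call without FSP 4. St3gal4 in FSP against HFD was lost with median-ratio scaling, quantile normalization, removal of mitochondrial genes and a fit of only the 2 groups, and without HFD 1, HFD 2, HFD 3, FSP 2, FSP 4 or ND 2. In HFD against ND, St3gal4 was lost with median-ratio scaling. Ext1 in FSP against ND was lost in 15 of the 21 alternatives. Calls were also gained. B4galnt2 was lower in HFD against ND in 5 alternatives (quantile normalization, the replicate block, array weights, without HFD 4 and without FSP 2) and higher in FSP against HFD with array weights. B3gnt7 was lower in FSP against ND in 3 (without mitochondrial genes, with array weights and without FSP 2), and Fut2 was lower in HFD against ND once the lower filter admitted it. With the position score as a covariate none of the 6 passed in any comparison. HFD scores overlapped with neither FSP nor ND, and the score is built from genes that themselves differed between groups. That fit therefore cannot separate position from group, and its lost calls do not show what part position had. In it the log2 change of HFD against ND was -2.45 (SE 1.10) for Mgat4c, -3.33 (SE 0.85) for Npl, -1.59 (SE 0.41) for Ext1 and -0.53 (SE 0.23) for St3gal4. The change of FSP against HFD was 2.08 (SE 0.70), 2.71 (SE 0.54), 0.89 (SE 0.26) and 0.40 (SE 0.15) for the same genes. Without the score, the SE of Npl in HFD against ND was 0.37.

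**Figure D3:**
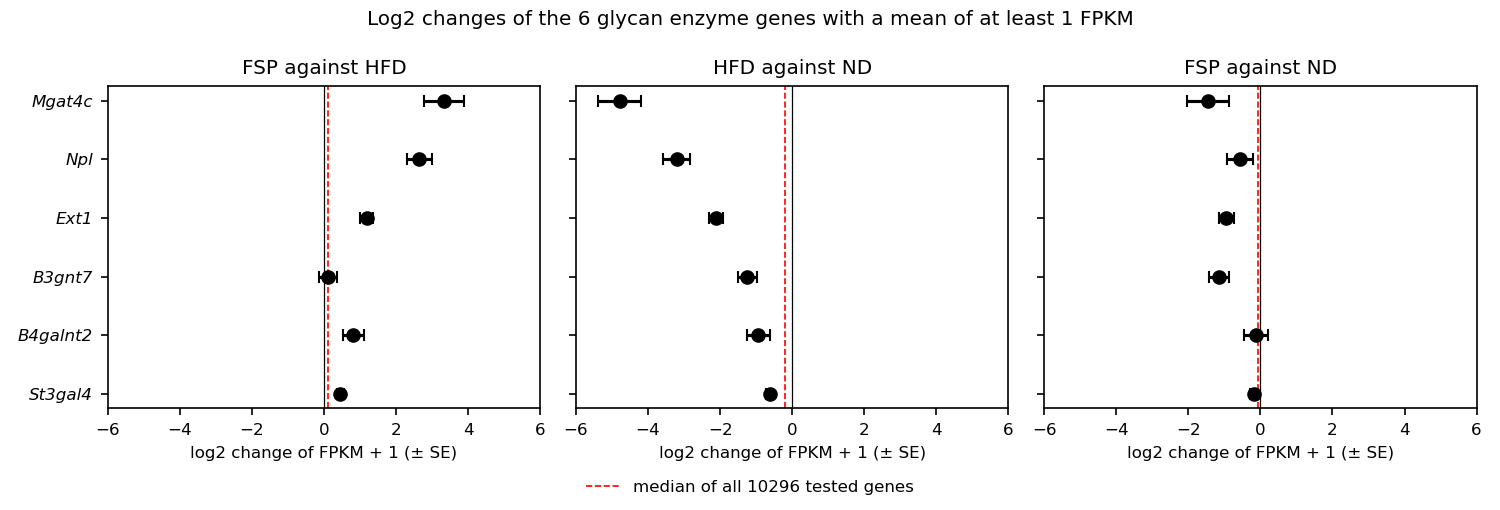
Log2 changes of FPKM + 1 (horizontal axis) with SE for the 6 genes above the filter in FSP against HFD, HFD against ND and FSP against ND. The dashed line is the median of all 10296 tested genes, 0.12, -0.21 and -0.07. Mgat4c lies farthest from it, at 3.33, -4.79 and -1.46.

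**Figure D4:**
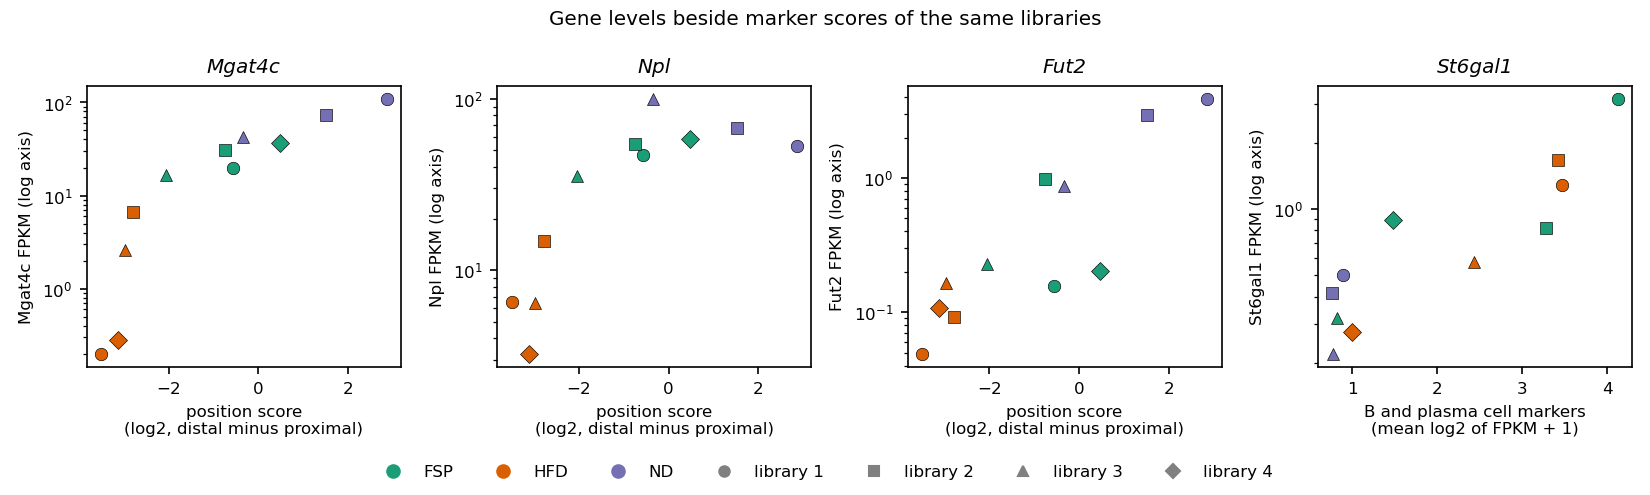
FPKM on a log axis against the position score (log2, distal minus proximal markers) for Mgat4c, Npl and Fut2, and against the score of 12 B and plasma cell markers for St6gal1, 1 point per library. HFD libraries sit at position scores of -3.50 to -2.78 with the lowest Mgat4c levels, and St6gal1 is highest in FSP 1, where the B and plasma cell score is 4.12.

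The rest of the glycan machinery was read from 11 lists holding 215 other genes, of which 143 passed the level filter. In FSP against HFD, 10 rose and 2 fell, or 8.39% of the 143, against 3.74% of all tested genes, and their median log2 change was 0.21. In HFD against ND, 5 rose and 30 fell, or 24.5% against 20.5%, with a median of -0.29. In FSP against ND, 0 rose and 1 fell by limma, or 0.699% against 1.03% of all tested genes, with 6 higher and 15 lower at an unadjusted p under 0.05. With median-ratio scaling the split in HFD against ND was 18 higher and 15 lower, and with quantile normalization 19 and 24. Rescaled without mitochondrially encoded genes, the split in FSP against HFD was 5 and 2. The lists were chosen with earlier results known, and no test compares them with other genes.

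By list, the calls in HFD against ND, where 5.36% of all tested genes were higher and 15.1% lower, were 4 higher and 6 lower of 27 for nucleotide sugar supply, 5 lower of 28 for N-glycan precursor assembly, 5 lower of 15 for chain extension, 3 lower of 17 for heparan sulfate and 3 lower of 13 for mucin-type O-glycan initiation. Fucosylation had 2 lower of 13, N-glycan branching 2 lower of 11, sialic acid supply 1 lower of 9, sialidases 1 lower of 3, sialyltransferases 1 higher and 1 lower of 4, and chondroitin sulfate 1 lower of 3.

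Chain extension held 4 of the 10 higher calls in FSP against HFD. B4galt5, a galactosyltransferase, rose (log2 0.71, limma adjusted p = 0.0217), with means of 28.4 ± 4.38 FPKM in FSP, 17.0 ± 2.25 in HFD and 32.4 ± 3.38 in ND. B4galt4 (log2 0.69), B4galt1 (0.60) and B4galnt4 (0.53) rose with it, so that 4 of the 15 tested genes of chain extension were higher, where 2.83% of all tested genes were, and 0 were lower (0 also at an unadjusted p under 0.05 by limma). Of the 11 fits that leave out 1 library, 2 lost the call of B4galt5, 8 that of B4galt4, 10 that of B4galt1 and 9 that of B4galnt4. These same 4 genes, with B4galnt3, fell in HFD against ND. B4galt1, the main galactosyltransferase of N-glycans, averaged 25.5 ± 4.14 in FSP, 16.5 ± 2.31 in HFD and 35.6 ± 0.86 FPKM in ND. Genes of UDP-GlcNAc supply did not move as one. Gfpt1, the entry enzyme of the hexosamine pathway, rose in FSP against HFD (log2 0.87, limma adjusted p = 0.0259) and fell in HFD against ND (log2 -1.12, limma adjusted p = 0.00296). Uap1, which makes UDP-GlcNAc, rose in FSP against HFD (log2 0.75) and fell in HFD against ND (-1.37). The FSP against HFD calls of Gfpt1 and Uap1 were lost in 6 and 9 of the 11 fits that leave out 1 library. Pgm3, the mutase between Gfpt1 and Uap1, was higher in HFD against ND (log2 0.42, limma adjusted p = 0.0416) and gave -0.16 in FSP against HFD (limma adjusted p = 0.501). Gnpnat1, the acetyltransferase, passed neither comparison (log2 0.28 in FSP against HFD and -0.61 in HFD against ND, limma adjusted p = 0.476 and 0.0586). Pgm3 and Gnpnat1 are named after their values were seen.

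A few genes ran opposite. Ugdh, which makes UDP-glucuronic acid, averaged 127.4 ± 21.9 in FSP, 218.4 ± 50.7 in HFD and 113.5 ± 6.38 FPKM in ND. It was lower in FSP against HFD (log2 -0.76, limma adjusted p = 0.0362), a call lost in 9 of the 11 fits that leave out 1 library. In HFD against ND it was higher (0.91, limma adjusted p = 0.00673). Pmm1, a phosphomannomutase, averaged 6.27 ± 0.727 in FSP, 30.2 ± 13.9 in HFD and 8.18 ± 1.75 FPKM in ND, with log2 -1.95 in FSP against HFD (limma adjusted p = 0.0157), lost without HFD 3 and without FSP 4.

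In heparan sulfate synthesis, beside Ext1, Xylt2, which starts the linker, and Glce, the epimerase, fell in HFD against ND (log2 -1.34 and -1.45, limma adjusted p = 0.000695 and 0.00139). Xylt2 averaged 2.52 ± 0.614, 1.28 ± 0.236 and 4.73 ± 0.111 FPKM in FSP, HFD and ND and also rose in FSP against HFD (log2 0.62, limma adjusted p = 0.0409), a call lost in 9 of the 11 fits that leave out 1 library. In mucin-type O-glycan initiation, Galnt7 fell in HFD against ND (log2 -1.13, limma adjusted p = 0.00217). Among the 143 other glycan genes it was the single one past the threshold in FSP against ND (log2 -0.92, limma adjusted p = 0.04), a call lost in 8 of the 11 fits that leave out 1 library. Galnt3 rose in FSP against HFD (log2 0.57, limma adjusted p = 0.0425), a call lost in 10 of those 11 fits, and fell in HFD against ND (-0.66). Mgat1, which starts complex N-glycan branching, rose in FSP against HFD (log2 0.39, limma adjusted p = 0.0425), a call lost whichever library was left out. None of the 28 tested precursor assembly genes passed in FSP against HFD, against 4 at an unadjusted p under 0.05 by limma, while Dpagt1, the first enzyme of that pathway, fell in HFD against ND (log2 -0.89, limma adjusted p = 0.00368). Of the 27 named calls in HFD against ND, 13 held without any 1 library and under every alternative except the position score, Neu1, Xylt2, Glce, Uap1 and B4galt1 among them. None of the 12 calls in FSP against HFD held in that way.

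**Figure D5:**
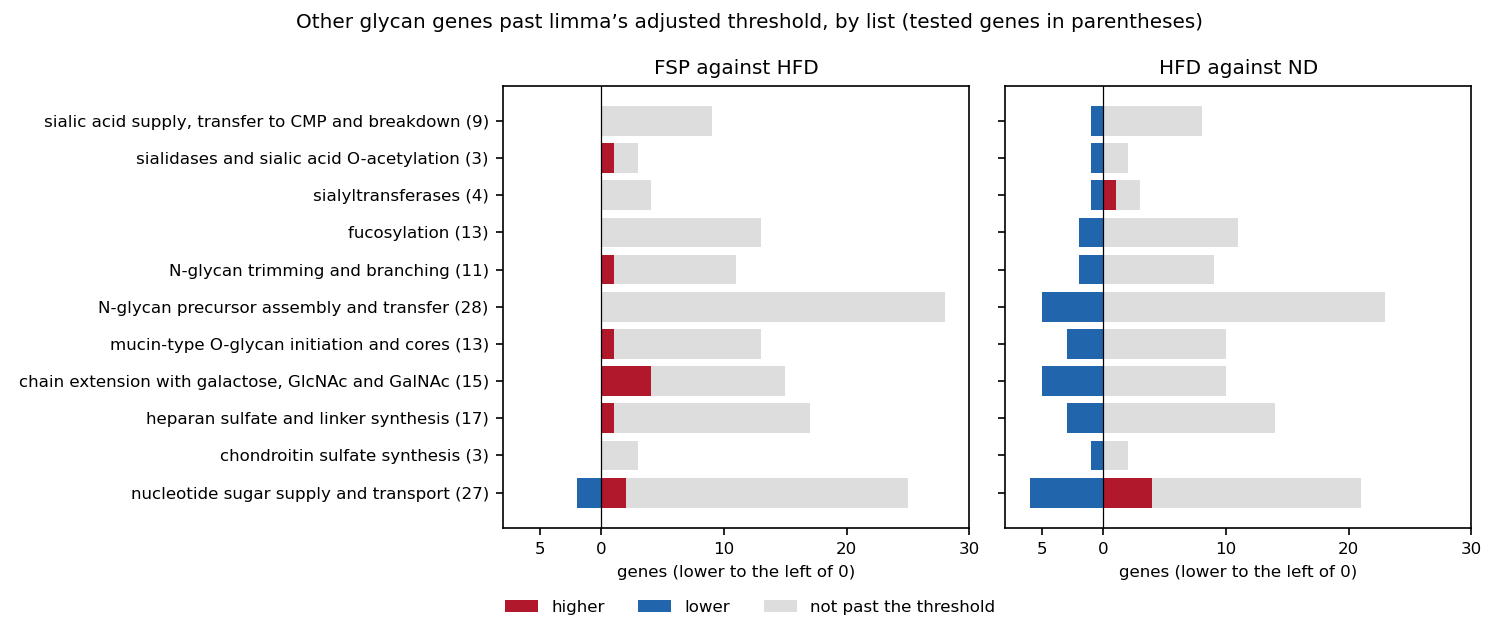
Number of tested genes (horizontal axis) in each of 11 glycan lists that passed the limma threshold as higher (red, right of 0) or lower (blue, left of 0), or did not pass (grey), in FSP against HFD and HFD against ND. Chain extension has 4 higher in FSP against HFD and 5 lower in HFD against ND.

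The genes whose log2 levels ran closest to those of the 8 across the 11 libraries are given as a description, since the libraries share groups and scaling. For Mgat4c these were Slc5a8 (Pearson's r 0.988, Spearman's rho 0.982), E2f5 (r 0.986, rho 1) and Cdkn2b (r 0.984, rho 0.964). Slc5a8, a monocarboxylate transporter, averaged 31.4 FPKM in FSP, 5.96 in HFD and 81.5 in ND. For Npl they were Smim9, Abca7 and Ocm (r 0.981, 0.971 and 0.971), and those for Ext1 included Naip1 and Ceacam1 (r 0.986 and 0.981). B4galnt2 ran closest to Man1b1 and Mgat3, both N-glycan enzymes, and Rtcb (r 0.993, 0.989 and 0.989). St3gal4 ran closest to Skp1, Slco2a1 and Misp (r 0.980, 0.977 and 0.975). B3gnt7 ran closest to Mlkl, Skap2 and Ddx60 (r 0.956, 0.955 and 0.935), and Fut2 to Rsad2, Epsti1 and Slc40a1 (r 0.961, 0.960 and 0.955). Slc40a1 is also one of the proximal markers in the position score. St6gal1 ran closest to Arrb2, Adgre5 and Swap70 (r 0.984, 0.976 and 0.976). Among the 8 genes themselves, Ext1 and St3gal4 had r 0.955, Mgat4c and Npl 0.940, and St6gal1 had a negative r with each of the other 7.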

How the data were processed

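Per the labels' protocols, TRIzol was the extraction reagent and the VAHTS Universal V6 kit made the libraries. Tools named in the submitters' processing notes are fastp, HISAT2, HTSeq and R 3.2.0, with build mm10. The annotation and strand setting were not given in the sources used here, nor were the roles of these tools. Per gene, the authors deposited FPKM values, so no count model was used. In single-library tables, all genes shared with the table of all samples had the same values. Those of HFD and ND shared 23609 genes, listed 685 others, all at 0, and lacked 641 that were at 0 in the joint table.

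Values were analysed as log2(FPKM + 1) in R 4.3.3 with limma 3.58.1 (trend, 2-sided). The 10296 genes with a mean of at least 1 FPKM over 11 libraries entered 1 fit of 3 groups, with Benjamini-Hochberg adjustment and a threshold of 0.05. Fut2 and St6gal1 were under that filter. The script was tested on simulated data. Depth was recovered from 658 single-exon genes, where 75.0% to 78.9% of low values were within 0.05 of a whole fragment. The labels do not say whether replicate numbers pair the samples, and the main fit did not pair them. Deviations from group means correlated at 0.38, 0.02, 0.45 and 0.39 between FSP and HFD libraries of the same number 1 to 4. For unlike numbers these correlations ran from -0.62 to 0.65. In HFD against ND the same-number values were -0.09, 0.04 and -0.05. The 8 genes, the lists and the likeness rule were chosen with earlier results of these data known. Named genes were the 8, fixed relatives and up to 3 genes per list and comparison with the smallest limma p. The alternatives were another pseudocount, filter, scaling, the replicate block, array weights, the position score, 2 groups only and leaving out each library. Of the genes nearest to Ext1 by that rule, 1 is not reported here.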

Additional observations from a re-analysis of the deposited data

Results flagged for a closer look

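Among 30 groups of 4 libraries, 4 had a library standing apart from the others by Dixon's criterion, and chance gives about 1 in 20. Ext1 in HFD 1 was 2.83 FPKM, below the other HFD libraries. HFD 1 also had the largest mitochondrial share, 40.4% of summed FPKM, and its part in that value was not tested. Fut2 in FSP 2 was 0.989 FPKM, above the other FSP libraries. The share of Fut2 in the Fut1 and Fut2 sum was lowest in FSP 1, at 71.0%. The share of St6gal1 in the St6gal1 and St6gal2 sum was lowest in FSP 3, at 96.8%, where both genes were low.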

How the results depend on the processing

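With array weights, the genes past the threshold numbered 7217 instead of 2109 in HFD against ND, 1592 instead of 385 for FSP against HFD and 1068 instead of 106 for FSP against ND, and the other glycan genes 112 instead of 35, 28 instead of 12 and 17 instead of 1. HFD 3 and ND 2 then took weights of 10.2 and 11.1, against 0.158 to 1.21 elsewhere. With the position score as a covariate, limma called 0 genes in HFD against ND (543 at an unadjusted p under 0.05), 0 for FSP against HFD (711) and 5 for FSP against ND, and 0 of the other glycan genes in each (11, 12 and 9 unadjusted). HFD scores did not overlap those of FSP or ND, so these counts cannot separate position from group. A fit of the 2 groups only gave 76 genes and 2 glycan genes in FSP against HFD. Glycan calls in FSP against HFD were 7 with the lower filter, 7 without mitochondrial genes, 6 with equal totals and 7 with the replicate block. In FSP against ND they were 5 with median-ratio scaling, 5 with quantile normalization, 3 without mitochondrial genes, 0 with equal totals (16 unadjusted) and 0 with the replicate block (24 unadjusted), and quantile normalization gave 192 genes. Without 1 library the counts ran from 849 to 2678 genes (14 to 42 glycan genes) in HFD against ND, lowest without ND 2, from 48 to 458 (0 to 8) in FSP against HFD, lowest without FSP 4 (0 glycan genes there and without HFD 3, 22 and 36 unadjusted), and from 13 to 201 (0 to 4) in FSP against ND. Scaling moved the balance: median-ratio scaling gave 1095 higher and 923 lower in HFD against ND (552 and 1557 as deposited) and 181 and 169 in FSP against HFD (291 and 94 as deposited). Quantile normalization gave 1125 and 1185 in HFD against ND and 249 and 194 in FSP against HFD. Removing mitochondrial genes gave 162 and 125 in FSP against HFD, and 72 and 71 in FSP against ND (72 and 34 as deposited). The cause was not tested. Values of the opposite sign included Csgalnact2 (0.18) and St6galnac6 (0.13) in HFD against ND with the position score and Gne (0.17) with array weights. Of the 8 genes, B3gnt7 in FSP against HFD, 0.10 as deposited, ranged from -0.26 to 0.27, and B4galnt2 in FSP against ND, -0.12 as deposited, was 0.04 without FSP 2, neither a call in its comparison as deposited. Ranked by Spearman's rho, 6 of the 24 nearest genes stayed among the nearest.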
